A study of Mus musculus with 4 samples.

Results

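The ABC efflux transporters of brain endothelium examined here were 8 genes: Abcb1a, Abcb1b, Abcg2, Abcc1, Abcc4, Abcc5, Abca1 and Abcg1. They were found by their symbol among the 17905 genes listed in either of the 2 deposited count tables. Of the 8, 7 were in both tables and entered the test over 13365 genes; Abcb1b was in 1 table and was not tested. Total RNA was sequenced from endothelial cells of the brain of C57BL/6 mice at embryonic day 18, per the labels. The genotype STING ECKO had 2 libraries, numbered 1 and 2, and wild type (WT) had 2, numbered 3 and 5. ECKO is commonly used for a knockout in endothelial cells, and STING is the adaptor protein encoded by Tmem173, which relays the sensing of cytosolic DNA. The labels name no Cre line, promoter, method of cell isolation or treatment, and they do not say whether libraries of a genotype came from separate animals. The reads of Ddx3y and Xist given below show only that the 2 STING ECKO libraries were not from the same animal. The p-values therefore reflect only how far these samples scatter, and for WT that scatter may be technical. In such bulk libraries, fewer cells of a type and less RNA per cell cannot be told apart.

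ABC transporters move substrates across membranes with energy from ATP. In the endothelium of brain vessels the products of Abcb1a (P-glycoprotein), Abcg2 (breast cancer resistance protein) and Abcc4 sit at the blood-facing membrane and return drugs and metabolites to the blood, a central part of the blood-brain barrier. The Abcc genes encode pumps for organic anions and conjugates, while Abca1 and Abcg1 export cholesterol to lipoproteins and are classic targets of the liver X receptors, LXR.

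The ATP-binding sites differ in number between the members, and those of the Abcb1 pair are nearly the same in sequence, which bears on how well their reads can be told apart. Abcb1a, Abcb1b, Abcc1, Abcc4, Abcc5 and Abca1 each had 2 matches to the Walker A motif in their coding sequence, the loop that holds the phosphates of ATP. Abcg2 and Abcg1, which encode transporters that work as dimers, had 1 match each. The coding sequences ranged from 657 codons in Abcg2 and 666 in Abcg1 to 2261 in Abca1. The windows below are 60 bases of GENCODE M21 transcripts on GRCm38, all on the plus strand, and capitals mark the 24 bases of the Walker A codons.
Abcb1a first site, chr5:8702189-8702248, exon 12 of 28: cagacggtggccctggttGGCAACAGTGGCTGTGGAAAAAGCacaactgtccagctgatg
Abcb1b first site, chr5:8824509-8824568, exon 12 of 28: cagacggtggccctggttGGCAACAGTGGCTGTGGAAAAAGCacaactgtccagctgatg
Abcb1a second site, chr5:8738800-8738859, exon 25 of 28: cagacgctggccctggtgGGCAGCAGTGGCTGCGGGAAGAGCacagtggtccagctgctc
Abcb1b second site, chr5:8853534-8853593, exon 25 of 28: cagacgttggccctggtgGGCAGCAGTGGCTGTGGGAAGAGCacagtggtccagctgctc
Abcg2, chr6:58663630-58664459, spanning the junction of exons 3 and 4 of 16: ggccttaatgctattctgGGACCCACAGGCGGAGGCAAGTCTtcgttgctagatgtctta
Abcg1, chr17:31092356-31092415, exon 3 of 15: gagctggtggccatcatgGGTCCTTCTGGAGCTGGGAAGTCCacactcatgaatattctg
The first window of Abcb1a and that of Abcb1b differed at 0 bases. Their second windows differed by C7T and C33T, with the Abcb1a base first and positions counted from 1 at the 5′ end of the window. The capitals of Abcg2 and Abcg1 differed at 9 of 24 bases. Over the whole coding sequence, 3364 of 3819 aligned bases of the Abcb1 pair were identical (88.1%), and the longest identical run was 338 bases. Of the 4207 windows of 100 bases in the Abcb1b transcript, 367 (8.72%) also occurred in the Abcb1a transcript, and of the 4257 windows of 50 bases 768 (18%) did. Reads from such stretches cannot be assigned by sequence alone, and their share depends on the read length. Neither the read length nor the authors' treatment of such reads is given in the sources used here.

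The 4 libraries held 18610298 to 22169261 listed reads. Libraries are given throughout in the order 1 and 2 of STING ECKO, then WT 3 and WT 5. Tmem173 had 67, 182, 97 and 130 reads, so its RNA was highest in a STING ECKO library and did not separate the labels; whether these reads lie in the deleted part of the gene is not known from the tables. The directions below are those of the libraries labelled STING ECKO and WT. STING ECKO 2 stood apart by its zeros: 1855 of the 14100 genes in both tables (13.2%) had 0 reads there, against 337 to 740 in the other libraries. STING ECKO 1 held 3623 reads of the Y-linked gene Ddx3y and 0 of Xist, while Xist had 876 to 3374 reads in the other libraries. Ddx3y had 0 reads in those libraries. By these genes the 2 STING ECKO libraries differed in sex, and both WT libraries were of the sex of STING ECKO 2. Sex was thus not balanced between the genotypes, and its part in the differences below was not tested. All 10 endothelial markers had reads in every library, with a summed level of 25490 to 26880 CPM (reads scaled to a common library total). Pericyte markers summed to 7697 to 10650 CPM, astrocyte markers to 210.7 to 376.5, microglia and macrophage markers to 417.1 to 1372 and neuron markers to 42.25 to 135.6. All CPM values here are scaled with TMM factors. In sums over a list, a gene not listed for a library counted as 0 there.

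Taken per length of exon, Abcg1 had the highest level of the 8, followed by a group of 3 (Abcb1a, Abca1 and Abcg2), then Abcc4, Abcc5, Abcc1 and Abcb1b. Abcg1 had 71.9 ± 16.9 CPM per kb (SD, n = 4 libraries). Abcb1a had 40.0 ± 0.931, Abca1 38.1 ± 4.01 and Abcg2 29.6 ± 5.90 CPM per kb on the same basis, so that Abcb1a and Abca1 differed by less than the spread of Abca1. Abcc4 had 14.5 ± 5.39 CPM per kb and Abcc5 had 3.63 ± 3.11, whose libraries ranged from 0.141 to 6.36. Abcc1 was at 0.457 ± 0.422 CPM per kb, an SD close to its mean. With the length of the principal transcript in place of all exons, Abcg2 (42.1 CPM per kb) stood above Abca1 (38.5), and the other members kept their places. The order was also not the same in each genotype by exon length. In WT, Abca1 (41.1 CPM per kb) was above Abcb1a (39.6), while in STING ECKO Abcb1a (40.5) was above Abca1 (35.1).

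**Figure D1:**
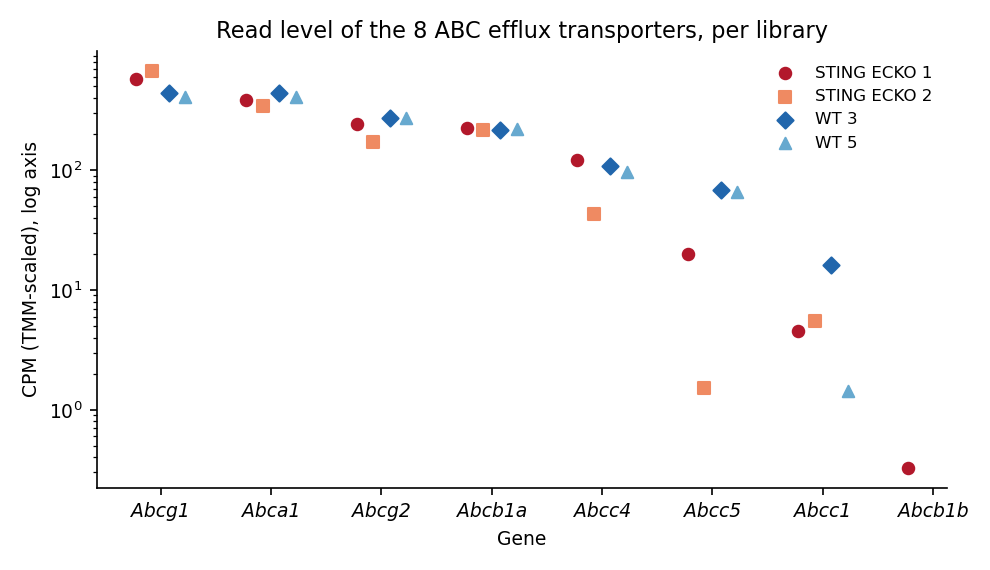
Level of the 8 efflux transporters in TMM-scaled CPM, not per length, on a log axis; each point is 1 library, and a value of 0 or a gene not listed has no point, so Abcb1b has 1 point. The Abcb1a points lie between 214 and 226 CPM, while the Abcc5 points spread from 1.51 to 67.9 CPM.

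No efflux transporter passed the test between the genotypes. With edgeR's quasi-likelihood test and Benjamini-Hochberg adjustment, 0 of the 7 tested members were called, against 0 of all 13365 genes (0.00%), and the smallest adjusted p over all genes was 0.977. At an unadjusted p under 0.05 stood 1 of the 7 members, Abcg1, against 642 of all genes (4.80%), and DESeq2 called 87 genes, none of them a member. The STING ECKO libraries were both above the WT libraries for 1 member (background 15.4% of genes) and both below for 3 (background 19.0%). These were Abcg1 above, and Abcg2, Abcc5 and Abca1 below. The median log2 difference (STING ECKO minus WT) was -0.31 over the 7 members and -0.03 over all genes. The summed CPM of all 8 members was 1571, 1461, 1567 and 1474 in the 4 libraries, so the groups overlapped in this sum. It is not scaled by gene length, and its largest parts were Abcg1 and Abca1, which stood in opposite directions.

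**Figure D2:**
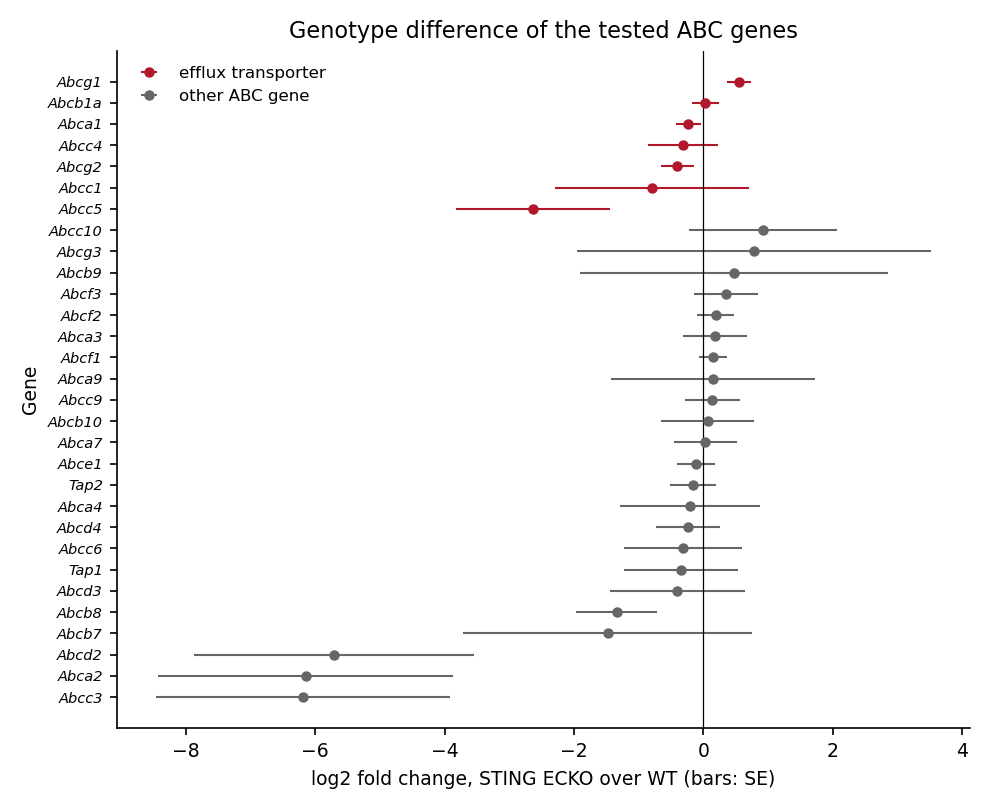
Log2 difference (STING ECKO minus WT) from edgeR's quasi-likelihood fit for the 7 tested efflux transporters, in red, and the 23 tested other ABC genes, in grey; bars are the SE and the line at 0 marks equal levels. Abcg1 lies at 0.55 and Abcc5 at -2.64, and among the efflux transporters only Abcc1 has a wider bar than Abcc5.

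Among the pumps of the blood-facing membrane, Abcb1a was the steadiest. Abcb1a (ENSMUSG00000040584, chr5:8660077-8748575) encodes P-glycoprotein, which returns many lipophilic drugs to the blood. It had 4149, 4750, 4633 and 4565 reads, or 226, 217, 214 and 220 CPM. The groups overlapped, and the highest library was 1.06 times the lowest. On the log2 scale the difference was 0.03 (SE 0.21), with an adjusted p of 1.00 by edgeR's quasi-likelihood test after Benjamini-Hochberg adjustment. The SD of its log2 CPM over the 4 libraries was 0.0333, while the median over the 1697 genes at 0.5 to 2 times its level was 0.302. Only 1 of those 1697 genes had a smaller SD. The count was also 1 when libraries were scaled by RLE factors or by listed reads and 2 with upper quartile factors; under RLE the 2 groups no longer overlapped for Abcb1a. The small spread was noticed in the values and is a description.

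**Figure D3:**
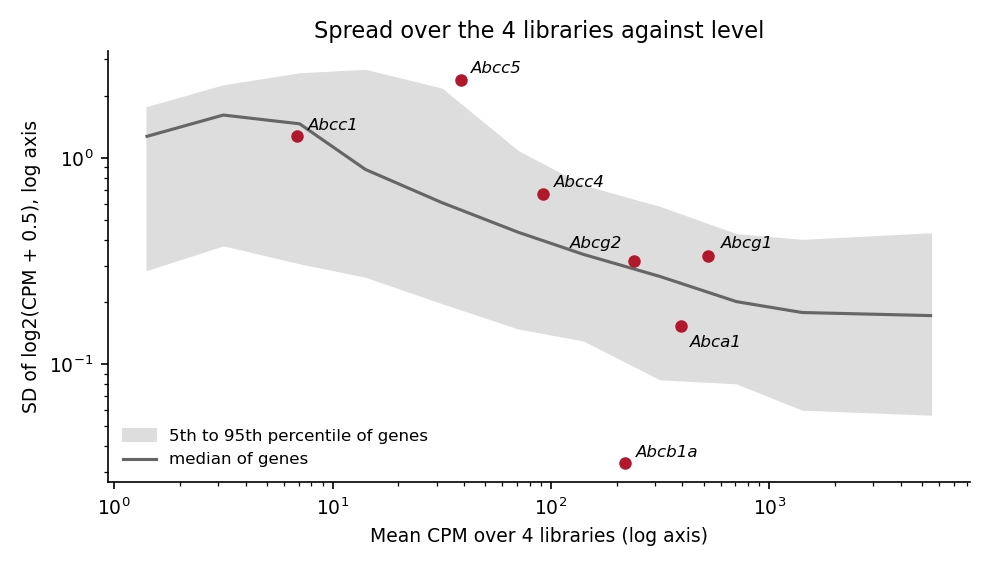
SD over the 4 libraries of log2(CPM + 0.5) against mean CPM, both on log axes; the line is the median of genes by level, the grey band runs from their 5th to their 95th percentile, and red points are the 7 members in both tables. Abcb1a lies below the band at 0.0333 and Abcc5 above it at 2.39.

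Abcb1b (ENSMUSG00000028970, chr5:8798147-8866315), the neighbouring gene for the other P-glycoprotein of rodents, was close to the limit of detection. STING ECKO 1 held 6 reads (0.327 CPM, 95% exact binomial interval 0.120 to 0.712). WT 3 held 0 reads, with an interval of 0 to 0.1705 CPM on the same basis. It was not listed for STING ECKO 2 and WT 5, and no rule for leaving genes out is given in the sources used here. If only genes under 5 reads, the smallest count listed beside a 0, were left out, each held at most 4 reads. Of the reads of both Abcb1 genes, Abcb1b held 0.144% in STING ECKO 1 (exact binomial interval 0.053 to 0.314%). In WT 3 it held 0 of 4633 (0 to 0.0796%). Nearly all listed Abcb1 reads were thus those of Abcb1a, subject to how reads of the shared stretches were counted. These intervals cover counting error only. In the first of the authors' deposited tables Abcb1b carried a log2 ratio of 3.79 marked as different, a value that rests on these 6 reads.

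Abcg2 (ENSMUSG00000029802, chr6:58584523-58695676), the transporter that exports drugs and urate, was lower in both STING ECKO libraries than in either WT library. Its reads were 4480, 3760, 5903 and 5694, or 244, 172, 273 and 275 CPM. WT 3 and WT 5 were close together, and STING ECKO 2 was the low library. The exact binomial intervals were 266 to 280 CPM in WT 3 and 267.5 to 281.8 CPM in WT 5. The WT values were thus closer than counting error alone can resolve, and their SD is no measure of how WT libraries vary. The STING ECKO mean was 208 ± 51.1 CPM and the WT mean 274 ± 1.21 (SD, n = 2 each), with a log2 difference of -0.40 (SE 0.25) and an adjusted p of 1.00 by edgeR's quasi-likelihood test after Benjamini-Hochberg adjustment. Leaving out STING ECKO 2 gave -0.16, and leaving out STING ECKO 1 gave -0.67. Within each library, the reads of Abcg2 divided by those of Abcb1a gave 1.08, 0.792, 1.27 and 1.25. Abcg2 thus had more reads than Abcb1a in 3 libraries and fewer in STING ECKO 2, but reads are not scaled by gene length. Per length of exon, Abcg2 was below Abcb1a in every library, at 21.1 to 33.7 against 39.1 to 41.3 CPM per kb. With the length of the principal transcript it was above Abcb1a in both WT libraries and below it in both STING ECKO libraries.

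Abcc4 (ENSMUSG00000032849, chr14:118482692-118706219), the pump for cyclic nucleotides and other organic anions, was low in 1 library only. It had 2232, 946, 2352 and 1988 reads, or 122, 43.3, 109 and 95.9 CPM. STING ECKO 1 was the highest and STING ECKO 2 the lowest, so the groups overlapped. The log2 difference was -0.31 (SE 0.54), with an adjusted p of 1.00 by edgeR's quasi-likelihood test after Benjamini-Hochberg adjustment. It turned from -1.24 without STING ECKO 1 to 0.26 without STING ECKO 2. Among genes at 0.5 to 2 times this level, 9.19% were as far below the mean of the other libraries in STING ECKO 2 as Abcc4 was, while the share was 1.27% for STING ECKO 1, 2.39% for WT 3 and 1.60% for WT 5. The part that low genes of STING ECKO 2 have in the Abcc4 value was not tested. The authors' deposited tables gave Abcc4 log2 ratios of 0.13 for STING ECKO 1 over WT 3, not marked, and -1.18 for STING ECKO 2 over WT 5, marked as different.

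Abcc5 (ENSMUSG00000022822, chr16:20331303-20426394), which exports cyclic nucleotides and glutamate conjugates, showed the widest gap between the genotypes among the members. It had 365, 33, 1469 and 1360 reads, or 19.9, 1.51, 67.9 and 65.6 CPM. The WT libraries were close to each other, both STING ECKO libraries lay below them, and the STING ECKO libraries differed more from each other than WT did. The mean in WT was 6.24 times that in STING ECKO. The log2 difference was -2.64 (SE 1.19), with an unadjusted p of 0.0762 and an adjusted p of 1.00 by edgeR's quasi-likelihood test after Benjamini-Hochberg adjustment, and DESeq2 gave an adjusted p of 0.399. With STING ECKO 2 left out it was -1.74, with STING ECKO 1 left out -5.46, and with the deposited table as a block -3.57 (adjusted p 1.00). The authors' deposited tables gave Abcc5 log2 ratios of -1.80 and -5.47, both marked as different, each from 1 library against 1.

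Other genes at the level of Abcc5 were also low in STING ECKO 2. Of 4075 genes at 0.5 to 2 times its mean in the other 3 libraries, 3.09% were as far below that mean in STING ECKO 2 as Abcc5 was, while the share was 0.149% for STING ECKO 1, 0.299% for WT 3 and 0.0501% for WT 5. The sums of neuron and of astrocyte markers were also lower in both STING ECKO libraries and lowest in STING ECKO 2, though not every marker was. Neuron markers summed to 63.83, 42.25, 135.6 and 87.63 CPM, and 7 of 8 had a log2 difference below 0. Syn1 was at 0 reads in both STING ECKO libraries, Snap25 at 0 in STING ECKO 1 and Gap43 at 0 in STING ECKO 2. Rbfox3, with 118, 317, 26 and 185 reads, was highest in STING ECKO 2, where Abcc5 was lowest. Astrocyte markers summed to 305.3, 210.7, 376.5 and 325.6 CPM, with all 7 tested members below 0. These sums do not cover the same genes in each library. Gfap (127 reads in STING ECKO 1 and 345 in WT 3) and Slc4a4 were not listed for STING ECKO 2 and WT 5. Gja1, which made up most of that sum, was at 263, 210, 277 and 249 CPM, and its log2 difference was -0.15. Acsbg1 was at 0 reads in both STING ECKO libraries, and Aqp4, Slc1a2 and Aldh1l1 were at 0 in STING ECKO 2. The part of these cell types and of the other low genes in the Abcc5 difference was not tested.

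Abcc1 (ENSMUSG00000023088, chr16:14361558-14475737), a pump for glutathione conjugates, was low and irregular. It had 84, 120, 348 and 30 reads, or 4.58, 5.49, 16.1 and 1.45 CPM. The 2 WT libraries held the highest and the lowest value, 11.1 times apart, with both STING ECKO libraries between them. Its log2 difference was -0.80 (SE 1.50), with an adjusted p of 1.00 by edgeR's quasi-likelihood test after Benjamini-Hochberg adjustment. Without WT 3 it was 1.80. The authors' deposited tables marked Abcc1 as different in opposite directions, with log2 ratios of -1.84 and 1.89.

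The cholesterol exporters stood in opposite directions. Abca1 (ENSMUSG00000015243, chr4:53030787-53159895) loads cholesterol and phospholipid onto lipid-poor apolipoproteins. It had 7030, 7550, 9601 and 8463 reads, or 383, 345, 444 and 408 CPM. Both STING ECKO libraries lay below both WT libraries, with little distance between STING ECKO 1 and WT 5. Its log2 difference was -0.23 (SE 0.19), with an adjusted p of 1.00 by edgeR's quasi-likelihood test after Benjamini-Hochberg adjustment. It ranged from -0.30 to -0.15 when each library was left out.

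Abcg1 (ENSMUSG00000024030, chr17:31057698-31115777) moves cholesterol to formed lipoprotein particles. It had 10471, 14791, 9579 and 8465 reads, or 571, 676, 443 and 408 CPM. Both STING ECKO libraries were above both WT libraries. The STING ECKO mean was 623 ± 74.6 CPM and the WT mean 426 ± 24.5 (SD, n = 2 each). The log2 difference was 0.55 (SE 0.19), with an unadjusted p of 0.0326 and an adjusted p of 0.977 by edgeR's quasi-likelihood test after Benjamini-Hochberg adjustment, while DESeq2 gave an adjusted p of 0.296. The log2 difference remained between 0.43 and 0.67 when each library was left out. In the authors' deposited tables Abcg1 had log2 ratios of 0.33 and 0.70, neither marked as different.

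Within a library, the ratio of Abcg1 to Abca1 reads does not depend on depth or scaling. It was 1.49, 1.96, 0.998 and 1.00. The WT ratios were close together (0.999 ± 0.00179), and both STING ECKO libraries were higher (1.72 ± 0.332, SD, n = 2 each). In WT 3 the exact binomial intervals were 434 to 451.8 CPM for Abcg1 and 435 to 452.8 CPM for Abca1. The WT ratios were thus closer than counting error alone can resolve, and their SD is no measure of how WT libraries vary. The mean ratio in STING ECKO was 1.73 times that in WT, and 1.49 to 1.96 times with 1 library left out. The 2 ratios described here were chosen after the values were seen and carry no test. Pericyte markers were higher in both STING ECKO libraries, as Abcg1 was, at 10180, 10650, 8303 and 7697 CPM in sum, with 8 of 9 tested members above 0. Fibroblast markers summed to 153.5, 146.3, 115.5 and 107.3 CPM, also higher in both STING ECKO libraries. Of the 3 tested members 2 were above 0, and Dcn was at 0 reads in STING ECKO 2. Col1a2, at 121, 127, 104 and 83.9 CPM, made up most of that sum. Lum went the other way, with 1 read in STING ECKO 2 and 79 in WT 5, and was not listed for STING ECKO 1 and WT 3. Microglia and macrophage markers summed to 552.2, 417.1, 549.3 and 1372 CPM, highest in WT 5, with 2 of 10 members above 0 (C1qc and P2ry12) and 8 below. Of these 10, Tmem119 alone was at 0 reads in a library, STING ECKO 2, where P2ry12 was at its highest. Their part in the values of Abcg1 and Abca1 was not tested.

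**Figure D4:**
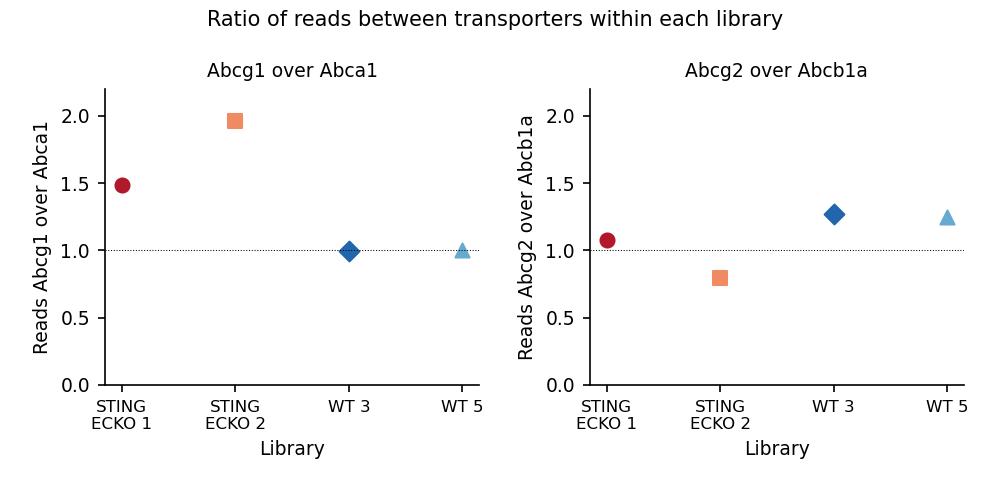
Ratio of reads within each library for Abcg1 over Abca1 (left) and Abcg2 over Abcb1a (right); each point is 1 library and the dotted line marks equal reads. On the left the WT libraries lie at 0.998 and 1.00 and the STING ECKO libraries at 1.49 and 1.96.

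**Figure D5:**
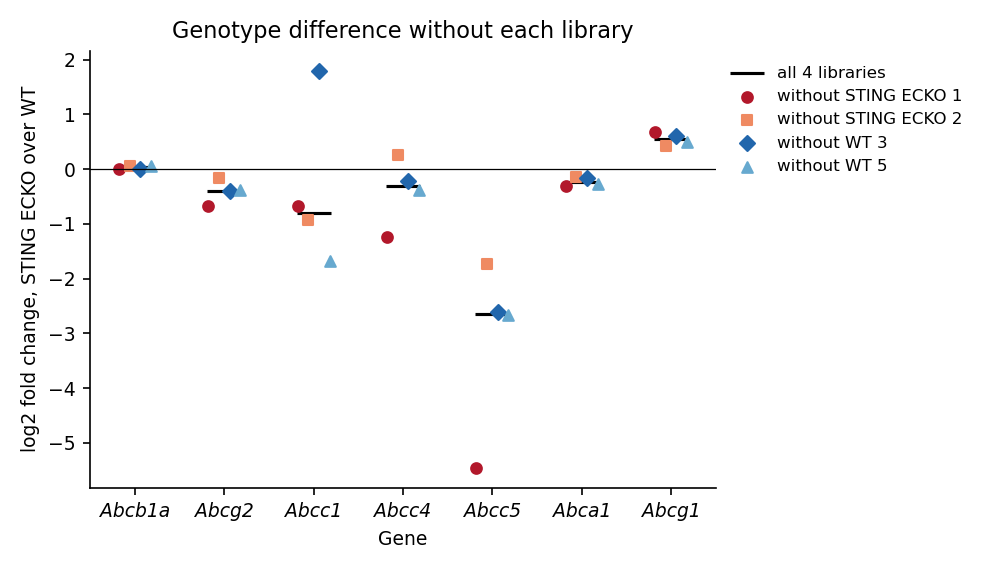
Log2 difference between STING ECKO and WT for the 7 tested members with all 4 libraries and with each library left out in turn. Abcc1 and Abcc4 cross 0, while Abcc5 ranges from -5.46 to -1.74 and Abcg1 from 0.43 to 0.67.

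The regulators that act on efflux genes, among them the LXR, RXR, AHR and NRF2 genes, comprised 17 genes, of which 13 were tested. Of these 7 had a log2 difference above 0 and 6 below, with 0 called. At an unadjusted p under 0.05 by edgeR's quasi-likelihood test stood 2 of the 13, against 4.80% of all genes. The STING ECKO libraries were both above the WT libraries for 4 (background 15.4% of genes) and both below for 5 (background 19.0%). Arnt, the partner of the aryl hydrocarbon receptor, was at 97.1, 104, 40.7 and 39.0 CPM, with a log2 difference of 1.34 (SE 0.33) and an adjusted p of 0.977 by edgeR's quasi-likelihood test after Benjamini-Hochberg adjustment. Nr1h2, which encodes LXR beta, was at 249, 353, 186 and 186 CPM, with a log2 difference of 0.69 (SE 0.25) and an adjusted p of 1.00. Both genes, named for their small p, were above WT in each STING ECKO library, as was Abcg1. Their part in the Abcg1 value was not tested. Rxrb, a partner of LXR, was lower in both STING ECKO libraries, at 26.9 and 11.3 CPM against 34.6 and 58.1.

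Of 14 cholesterol efflux partners and LXR targets 12 were tested, 6 with a log2 difference above 0 and 6 below, a median of 0.01 and 0 called. Apoe, a lipid acceptor for both exporters, was at 717, 639, 743 and 1193 CPM, highest in WT 5. Scarb1, a receptor that exchanges cholesterol with lipoproteins, was at 479, 376, 554 and 541 CPM, lower in both STING ECKO libraries as Abca1 was. Lrp1, an endocytic receptor of lipoproteins, was at 142, 297, 126 and 135 CPM, set apart by STING ECKO 2. The members of this list therefore lay on both sides of 0, as Abca1 and Abcg1 did.

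Among 7 genes for proteins that anchor pumps at the membrane, 6 were tested, 1 above 0 and 5 below, with 0 called. Cav1, the coat protein of caveolae, which binds P-glycoprotein, was at 287, 151, 376 and 462 CPM, with a log2 difference of -0.93 (SE 0.36), an unadjusted p of 0.0454 and an adjusted p of 1.00 by edgeR's quasi-likelihood test after Benjamini-Hochberg adjustment. Cav1 was thus lower in both STING ECKO libraries, and the Abcb1a difference was 0.03 on the log2 scale. These are RNA levels, and a link between Cav1 and Abcb1a was not tested. Slc9a3r2, a scaffold protein, was at 971, 792, 974 and 921 CPM. Ezr, which links membrane proteins to actin, had 182, 0, 273 and 586 reads.

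Of 43 other ABC genes, 30 were in either table and 23 were tested. Their log2 differences were above 0 for 11 and below for 12, with a median of -0.11 beside -0.31 for the efflux members, and 0 were called. Leaving out STING ECKO 1 put the median at -0.31 for the other ABC genes and -0.67 for the efflux members, and leaving out STING ECKO 2 put it at 0.04 and -0.15. The most abundant were Abcf1 at 208 to 253 CPM, Abcf2 at 155 to 238 CPM and Abcf3 at 103 to 245 CPM, which act in translation and transport nothing, and Abcc9 at 129 to 259 CPM, a potassium channel subunit and pericyte marker. Abcd2, a peroxisomal fatty acid transporter, was at 14, 0, 561 and 298 reads, with a log2 difference of -5.71 (SE 2.16), an unadjusted p of 0.0446 and an adjusted p of 1.00 by edgeR's quasi-likelihood test after Benjamini-Hochberg adjustment. As for Abcc5, its lowest value was in STING ECKO 2 and both STING ECKO libraries lay below WT. Abcb8, of the mitochondrial inner membrane, was at 13.3, 20.7, 53.7 and 31.9 CPM, also lower in both STING ECKO libraries. Abcc10 (4.29 to 17.0 CPM) overlapped between the genotypes and was highest in STING ECKO 2. Outside the naming rule, and chosen after their values were seen, Abca2 had 4, 0, 206 and 135 reads and Abcc3 had 4, 0, 179 and 171. Of the 23 tested other ABC genes, 5 had both STING ECKO libraries below both WT libraries (background 19.0% of genes). Abcd2, Abcb8, Abca2 and Abcc3 are among these 5. Both were above for 1 (background 15.4%).

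The genes whose profile over the 4 libraries was most like that of Abcb1a, among 4064 genes of at least 50 CPM, were Itm2a, H2afz and Klf11, at distances of 0.0269, 0.0383 and 0.0440 between centred log2 CPM profiles. Itm2a was at 6650, 6553, 6414 and 6576 CPM, as level as Abcb1a. The genes most like Abcg2 were Med24 (101, 70.2, 114 and 113 CPM), Llgl1 and Calu, at distances of 0.0173, 0.0275 and 0.0326. With 4 libraries such likeness rests on few points and is a description.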

How the data were processed

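Each of the 2 deposited tables gives a count of whole reads for every gene, one with STING ECKO 1 and WT 3 and the other with STING ECKO 2 and WT 5, per the file headers. Reads were aligned and counted with tools that include TopHat2 2.0.12, HTSeq 0.6.0 and Bowtie2 2.2.3 on mm9, per the submitters' processing notes. Of the matched genes, 89.7% had positions identical to GENCODE M21 on GRCm38, and coordinates are printed on that build. The deposited CPM, log2 ratio and p-value columns are the authors' own and compare 1 library with 1 library, per the file headers; of these only the log2 ratios and marks of the members are quoted.

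Tables of 16378 and 15627 genes were merged by gene identifier, with 14100 genes in both. A gene with 0 reads in 1 library of a table was listed only where the other had at least 5, as read from the listed genes. Genotypes were compared with edgeR 4.0.16 in R 4.3.3 (TMM factors, a filterByExpr count minimum of 10, quasi-likelihood test, Benjamini-Hochberg adjustment over 13365 genes, threshold 0.05). The SE is the log2 difference divided by the square root of F. One read was 0.0457 to 0.0545 CPM. Log2 CPM in the spread and the likeness used a pseudocount of 0.5. Alternatives used DESeq2 1.42.0, limma 3.58.1 voom, the likelihood ratio test, other scalings, no filter, a block by table, all 17905 genes, and each library left out.

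Named genes were the 8 members, Tmem173, other ABC genes with the 4 smallest p or the 4 highest levels, the 3 smallest p of each other list (means of at least 5 CPM), and the top gene of each marker list. Of the other ABC genes, 1 that the rule named is not reported here, was left out of that list and was not replaced. The top marker genes were Cldn5, Rgs5, Gja1, C1qa, Dcx, Olig1, Ttr, Col1a2 and Hba-a1. Summed CPM of the remaining marker lists was 1.463 to 25.15 for the oligodendrocyte lineage, 5.687 to 27.3 for choroid plexus, 107.3 to 153.5 for fibroblasts and 1229 to 2853 for erythroid cells. The members and lists were chosen with earlier results of these data known.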

Additional observations from a re-analysis of the deposited data

Results flagged for a closer look

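Among ABC genes listed only in the table of STING ECKO 1 and WT 3, and therefore outside the comparison, STING ECKO 1 had reads of 4 genes that were at 0 in WT 3. Abcb1b had 6 reads, Abca5 had 6, Abca8a had 72 and Abcg4 had 16. The 6 reads of Abcb1b and of Abca5 are few. For Abcb1b the exact interval of 0.120 to 0.712 CPM in STING ECKO 1 overlaps that of 0 to 0.1705 CPM in WT 3. The opposite was seen for 2 other ABC genes of that table, which were at 0 reads in STING ECKO 1 and at 73 and 51 reads in WT 3. None of these 6 was listed for STING ECKO 2 and WT 5, which bounds each at 4 reads there if only genes under 5 reads were left out.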

How the results depend on the processing

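The count of genes called was 0 with edgeR's quasi-likelihood test and with voom, RLE or upper quartile scaling, no filter, the block by table, all genes of either table and each library left out. DESeq2 called 87 genes and the edgeR likelihood ratio test 33, with no member among them. The replicate numbers 1, 2, 3 and 5 are not shared between the genotypes, so the pairing tried was that of the deposited tables, as a block. With it Abcc5 was at -3.57, Abcd2 at -7.06 and Ezr at -4.78 on the log2 scale, each with an adjusted p of 1.00 by edgeR's quasi-likelihood test. Of 84 alternative values of the 7 tested members, 80 kept their direction and 4 turned, with a smallest adjusted p of 0.184. Abcc1 was at 0.02 with voom and 0.05 with the block, and at -1.67 to 1.80 on the log2 scale with a library left out. The same range was -1.24 to 0.26 for Abcc4, -0.55 to 0.63 for Tmem173, -0.05 to 0.41 for Abcf2, -0.45 to 0.56 for Abcc9, -0.38 to 0.84 for Abcf3 and -0.26 to 0.04 for Slc9a3r2. Of 204 values of 17 other named genes, 197 kept their direction, with a smallest adjusted p of 0.0893. The median of the members was -0.67 to -0.15 with a library left out, and that of the other ABC genes -0.31 to 0.04. A fit without a library leaves its genotype with 1 sample, assumed to vary like the other genotype. Alternatives for the overlap of groups, the Abcb1a spread, gene length and read ratios were chosen after seeing the data. Depth limits Abcb1b, and zeros in STING ECKO 2 limit what low genes show.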
